A study of Mus musculus with 74 samples.

Results

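The mouse genes Kif21a, Zfp36l3, Psmb8 and Kcnj12 were described here, 4 of the 37620 genes in the RNA-seq tables. They were picked because their response to doxycycline (Dox) in the absence of LIF differed between cells carrying a guide RNA to Nanog and cells carrying guide RNAs to both Nanog and Otx2, so that difference was used to choose them and is given below as a description only. LIF, leukaemia inhibitory factor, is the cytokine that maintains mouse embryonic stem (ES) cells in culture. The study asked what Nanog does to self-renewal of ES cells when LIF is present and when it is withdrawn.

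All activation cells came from E14Tg2a ES cells and carried SunTag, a Dox-inducible activator in which an inactive Cas9 recruits transcriptional activation domains to the site a guide RNA specifies. The Nanog guide was studied in the clones C1 and C2. The Nanog/Otx2 guides were studied in C1ON3 and C2ON3, which were derived from the C1 and C2 Nanog lines by adding an Otx2 guide. Each of the 4 is a single clone. The guides differ together with the clones and with the set of libraries, so a difference between guides cannot be told apart from a difference between those. Cells were grown for 3 days with 10 ng/mL LIF or without LIF, and with 1 µg/mL Dox or without it. With the Nanog guide there were 3 libraries with LIF and no Dox, 2 with LIF and Dox, 3 without either, and 3 with Dox alone. With the Nanog/Otx2 guides the same conditions held 3, 4, 4 and 4 libraries. A separate line, 44iN, lacks endogenous Nanog and carries a Dox-dependent Nanog transgene. It was sampled with 1 µg/mL Dox, 24 h after Dox was removed and after long-term culture without Dox, 2 libraries each. All 44iN cells were grown with 10 ng/mL LIF. Beside them stand 3 wild-type (Tg2a) libraries from serum and LIF medium. Dox therefore acts on the endogenous Nanog promoter in SunTag cells and on a transgene in 44iN cells.

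Nanog is a homeodomain transcription factor of the naive pluripotency network that sustains self-renewal when LIF is limiting. Otx2 is a bicoid-type homeodomain factor that accompanies the passage from naive to formative pluripotency, and Nanog represses it. The 4 genes belong to unrelated families. Kif21a encodes a kinesin-4 motor protein that walks along microtubules and restrains their growth. Zfp36l3 is the X-linked rodent member of the Zfp36 (tristetraprolin) family, zinc finger proteins that bind AU-rich elements in mRNA and promote its decay, and is best known from placenta and yolk sac. Psmb8 encodes a catalytic subunit of the immunoproteasome, which takes the place of the constitutive subunit Psmb5 and favours peptides for class I antigen presentation. Kcnj12 encodes an inward rectifier potassium channel (Kir2.2) that helps to hold the resting membrane potential.

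The target sites of the guides are shown because they define what Dox activates. Each has its adjacent motif (PAM) in capitals and was read 5′ to 3′ from the mm9 genome after matching the designed guide, with 1 exact site on its chromosome.
Nanog guide target: cttcccactagagatcgccaGGG
Otx2 guide target: aatgtagagcgtgcatttggAGG
The Nanog site lies at chr6:122657269-122657291 on the plus strand, 219 bases upstream of the annotated start of Nanog and outside any Nanog exon. The Otx2 site lies at chr14:49282646-49282668 on the minus strand, 102 bases upstream of the nearest annotated Otx2 transcript start and in an intron of 6 of the 8 annotated Otx2 transcripts. Sites resembling the guides were searched in 1 RefSeq promoter of 300 bases for each of the 4 genes, which for Kcnj12 and Psmb8 starts inside the annotated gene, and in no other region. The closest site with a PAM for the Nanog guide had 9 mismatches in Kif21a, 10 in Psmb8 and in Zfp36l3 and 11 in Kcnj12, and 16.3% of all 32851 promoters held a site at least as close as that of Kif21a. For the Otx2 guide the fewest mismatches were 8 in Zfp36l3, 9 in Kcnj12, 10 in Psmb8 and 12 in Kif21a, and 3.46% of all promoters were at least as close as that of Zfp36l3.

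The 250 bases before the RefSeq starts of Kif21a and Psmb8 are shown because in the values that chose the 4 genes these moved in opposite directions with the different guides. The sequences are those of RefSeq (GRCm38.p6), and each was found unchanged in mm9.
Kif21a promoter: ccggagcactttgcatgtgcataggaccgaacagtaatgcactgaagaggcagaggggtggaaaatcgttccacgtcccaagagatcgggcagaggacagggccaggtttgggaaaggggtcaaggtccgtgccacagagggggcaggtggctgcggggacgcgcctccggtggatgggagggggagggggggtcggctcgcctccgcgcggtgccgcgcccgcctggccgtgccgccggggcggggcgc
Psmb8 promoter: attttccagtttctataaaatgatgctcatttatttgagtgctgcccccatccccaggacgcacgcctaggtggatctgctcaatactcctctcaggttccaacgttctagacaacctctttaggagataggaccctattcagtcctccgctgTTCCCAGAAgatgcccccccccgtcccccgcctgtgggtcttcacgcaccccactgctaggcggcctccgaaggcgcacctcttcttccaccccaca
In mm9 the Kif21a window is chr15:90880383-90880632 (minus strand) and the Psmb8 window is chr17:34334890-34335139 (plus strand). Capitals mark the only match to any of 4 motifs searched on both strands, a Stat motif (TTCNNNGAA) that starts 97 bases before the Psmb8 start and reads the same on both strands. Of all promoters, 7.02% held that motif in these 250 bases. The Otx2 motif (TAATCC, in 6.25% of promoters), the octamer (ATTTGCAT, in 1.60%) and the interferon-stimulated response element (in 2.98%) were not found in this window of any of the 4 genes. The Kif21a window was GC-rich, at 69.6% with 23 CpG dinucleotides, against a median of 52.4% and 6 CpGs over all promoters, whereas the windows of Psmb8, Zfp36l3 and Kcnj12 held 55.6%, 55.2% and 56.0% GC and 10, 6 and 4 CpGs.

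In the GENCODE vM1 annotation of mm9, Kif21a (ENSMUSG00000022629) spans 90763707 to 90880382 of chromosome 15 on the minus strand, with up to 38 exons in a transcript. Zfp36l3 (ENSMUSG00000059334) is a compact gene of up to 2 exons at 51075863 to 51079571 of chromosome X, minus strand. Psmb8 (ENSMUSG00000024338), with up to 6 exons, lies at 34334666 to 34338399 of chromosome 17 on the plus strand, in the major histocompatibility complex. Kcnj12 (ENSMUSG00000042529), with up to 3 exons, lies at 60836066 to 60884633 of chromosome 11 on the plus strand. None of the 65-base windows of their coding transcripts was shared with another coding gene. Psmb8 overlaps the antisense gene Gm20496 and Zfp36l3 the antisense pseudogene Gm14593. Reads were counted by strand, and these partners stayed at or below 1.32 and at 0 normalised counts in every library.

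The 35 libraries held 6107512 to 92244655 estimated counts, with a median of 29298745. Levels below are normalised counts, that is counts divided by the library's size factor, and are compared only within a gene. Where groups are said not to overlap, this is a description, since the share of all genes separated so was not counted. The targeted genes followed the labels. With LIF, Nanog went from between 21941 and 29487 without Dox to 75226 and 93813 with Dox in the Nanog guide clones (adjusted p = 0.0793), and rose from 18320 to 20533 to between 40628 and 48558 in the Nanog/Otx2 clones. Otx2 moved the opposite way in these lines, falling from 704 to 908 to 166 and 308 with the Nanog guide and rising from 736 to 1062 to between 3214 and 3806 with the Nanog/Otx2 guides. Without LIF, mean Nanog went from 5916 to 51805 with the Nanog guide and from 4425 to 39530 with the Nanog/Otx2 guides. Mean Otx2 went from 4238 to 2450 and from 4074 to 7173. After induction with LIF, mean Nanog was 1.92-fold higher in the Nanog guide than in the Nanog/Otx2 clones. Without LIF it was 1.31-fold higher, with overlapping ranges. The part of this Nanog difference in the results was not tested. The summed naive pluripotency markers, 11 genes, with Nanog itself, reached at least 87509 in every SunTag library with LIF. Libraries of different clones came from separate lines, but nothing in the sources used here says that those of 1 clone, or of 44iN or Tg2a cells, came from separate cultures, so there p-values measure only the spread between these libraries.

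Without LIF, the condition that chose the genes, all 4 genes were lower after induction with the Nanog guide. Kif21a was at 1866, 1845 and 1632 without Dox and 827, 904 and 972 with it. Zfp36l3 went from 103, 112 and 134 to 9.19, 8.57 and 15.4. Psmb8 went from 69.2, 51.7 and 70.1 to 14.2, 17.1 and 9.04. These values do not overlap between the conditions for any of the 3 genes, which their choice favours. Kcnj12 went from 26.9, 19.4 and 35.6 to 7.52, 7.72 and 2.71, again without overlap. The log2 fold changes were -0.95 ± 0.25 (SE) for Kif21a, -3.37 ± 0.39 for Zfp36l3, -2.20 ± 0.41 for Psmb8 and -2.10 ± 0.41 for Kcnj12.

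With the Nanog/Otx2 guides 2 of the 4 genes were higher after the same treatment, 1 had overlapping values and the other was lower by less. Kif21a went from 1244, 1272, 963 and 1113 to 2888, 2603, 2102 and 1746. Psmb8 went from 154, 151, 173 and 161 to 485, 302, 261 and 207. In both genes every induced library was above every uninduced one. Kcnj12 was at 38.4, 42.3, 21.7 and 25.6 without Dox and 70.8, 36.2, 41.9 and 32.2 with it, so the conditions overlapped. Zfp36l3 was at 76.6, 99.1, 87.4 and 91.3 without Dox and 50.3, 58.4, 63.4 and 62.5 with it, lower in every induced library as with the Nanog guide, by a smaller factor. The log2 fold changes were 1.06 ± 0.16 (SE) for Kif21a, 1.01 ± 0.29 for Psmb8, 0.53 ± 0.27 for Kcnj12 and -0.55 ± 0.25 for Zfp36l3. The fitted change thus had opposite signs with the different guides for Kif21a and Psmb8, and for Kcnj12 with overlapping values under the Nanog/Otx2 guides, and Zfp36l3 was 10.6-fold lower with the Nanog guide and 1.51-fold lower with the Nanog/Otx2 guides.

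**Figure D1:**
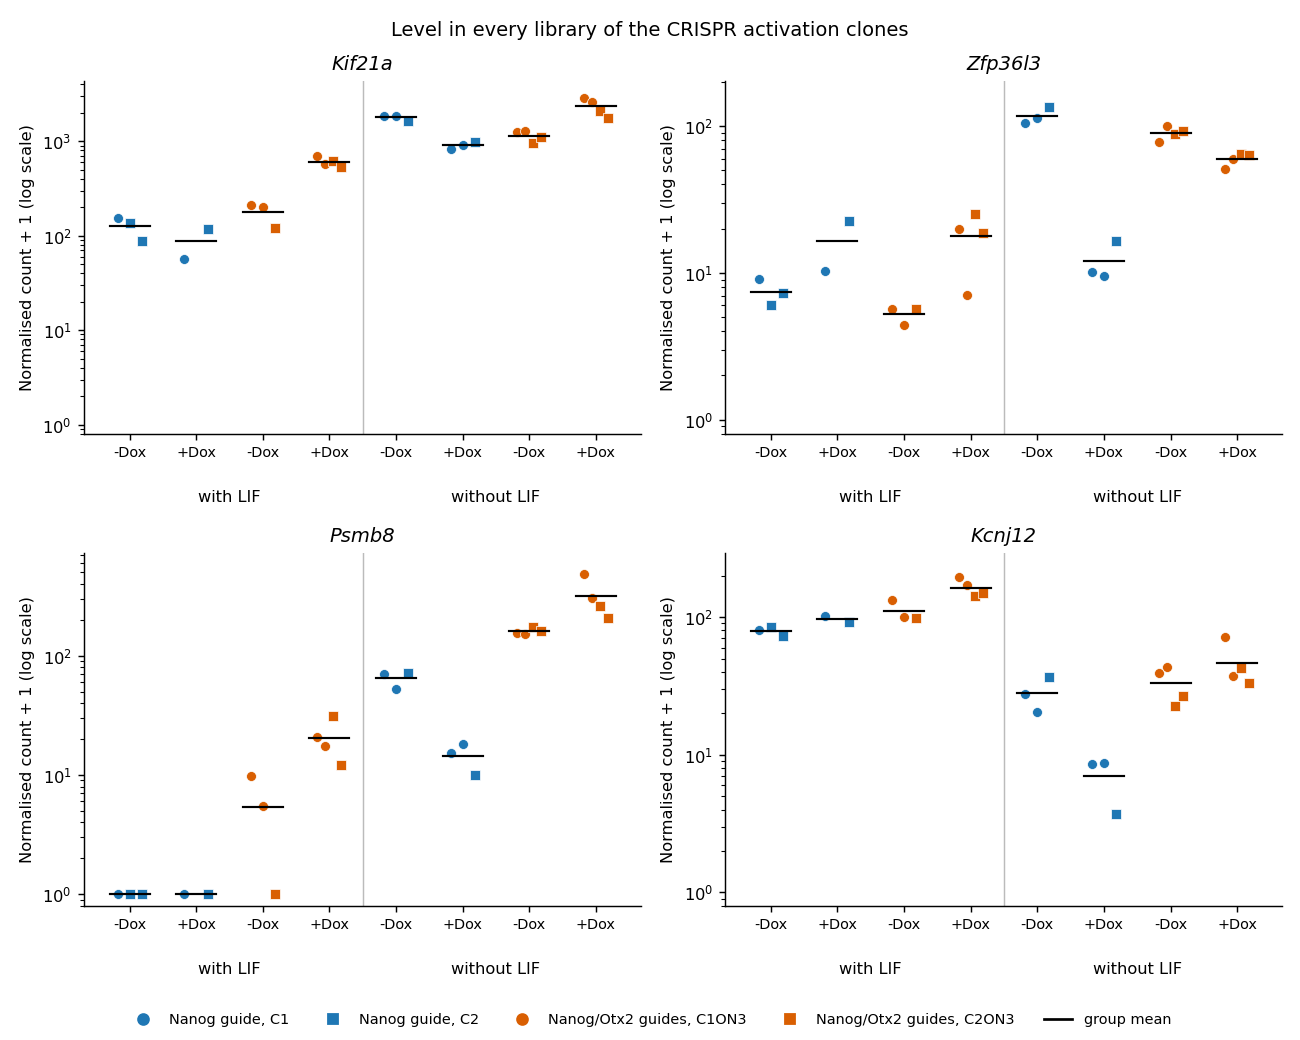
Normalised count + 1 (log axis) of each gene in every SunTag library, by LIF and Dox. Blue points are Nanog guide libraries, orange points Nanog/Otx2 guide libraries, circles the C1-derived and squares the C2-derived clones, and black lines the group means. Without LIF, all 4 genes are lower with Dox in blue, while in orange Kif21a and Psmb8 are higher, Kcnj12 overlaps and Zfp36l3 goes from a mean of 88.6 to 58.6.

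The difference between guides in this response, which is the measure behind the choice, was 1.97 for Kif21a, 2.78 for Zfp36l3, 3.16 for Psmb8 and 2.58 for Kcnj12 on the log2 scale. As their choice implies, these genes were among those past an adjusted p of 0.05 for that difference, which with Otx2 itself were 5 of 16210 (0.0308%). The next 3 genes by p, just outside that threshold, were Parp10, with a difference of 2.14, Tap2, with 2.21, and Adamts15, with 1.38. In the same libraries, of 15023 genes fitted with both guides 2 (0.0133%) were called lower by Dox with the Nanog guide and higher with the Nanog/Otx2 guides, Kif21a and Psmb8, and none in the reverse pair of directions, which likewise follows from values that chose them. Within each clone the direction was that of its guide. Kif21a moved by -1.10 and -0.75 on the log2 scale of means within a clone in C1 and C2 and by 1.13 and 0.89 in C1ON3 and C2ON3, and Psmb8 by -1.95 and -2.96 against 1.37 and 0.49. In C2 each condition was a single library.

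With LIF present, 3 of the 4 genes rose on induction with the Nanog/Otx2 guides. The choice did not use these libraries. The fit, however, took its spread from all 15 libraries of these guides, those without LIF included, so its p-values are not independent of the choice. In that comparison 12.9% of 15609 genes were called higher and 22.9% were called in either direction. Kif21a was at 209, 202 and 120 without Dox and at 699, 573, 618 and 535 with it. This is a log2 fold change of 1.71 ± 0.19 (SE), with an adjusted p of 7.48e-05, and all 4 induced libraries were above all 3 others. Zfp36l3 rose from 4.69, 3.40 and 4.63 to 18.8, 6.03, 24.3 and 17.8, a log2 fold change of 2.07 ± 0.39 (adjusted p = 0.00215). Psmb8 was at 8.72, 4.53 and 0 without Dox and at 19.8, 16.6, 30.0 and 11.2 with it, a log2 fold change of 1.68 ± 0.48 (adjusted p = 0.0211). Zfp36l3 passed the filter on low counts through the groups without LIF, since no group with LIF reached 10 in every library. The groups did not overlap for these genes either, although the uninduced values of Zfp36l3 and Psmb8 rest on at most 7 and 13 estimated counts, and the library listing Psmb8 at 0 was the shallowest, where 3 counts would give 13.9. The Psmb8 call was lost without C1ON3-2 of the uninduced libraries (adjusted p = 0.128) and without C2ON3-1 of the induced ones (adjusted p = 0.0655). It was also lost in a fit of the libraries with LIF alone, in which Zfp36l3 gave no value. Kcnj12 was at 131, 98.6 and 97.2 without Dox and at 194, 169, 140 and 149 with it, and its log2 fold change of 0.58 ± 0.28 did not pass the test (adjusted p = 0.151). With the clone and its number as a block, 6401 genes were called in place of 3577, and Kcnj12 was among them at 0.71 (adjusted p = 0.0122). The column header gives the uninduced C2ON3-1 library the number 2, and with header numbers as the block the values were 6519 genes and 0.71 (adjusted p = 0.0119).

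With the Nanog guide alone and LIF present, none of the 3 genes that could be tested was called, where 0.563% of 15624 genes were. Kif21a was at 153, 134 and 86.1 without Dox and at 56.0 and 117 with it, a log2 fold change of -0.48 ± 0.31 (adjusted p = 0.513). Zfp36l3 was at 8.03, 5.03 and 6.24 without Dox and at 9.33 and 21.5 with it, and its fold change of 1.34 ± 0.52 on the log2 scale had an adjusted p of 0.281. Kcnj12 was at 80.3, 83.8 and 72.4 without Dox and at 101 and 91.5 with it (log2 fold change 0.27 ± 0.39, adjusted p = 0.788). Both induced Kcnj12 and Zfp36l3 libraries were above all the uninduced ones, whereas the Kif21a values overlapped. Psmb8 was listed at 0 in all 5 of these libraries, each of which could hold up to 2.69 to 8.03 normalised counts at a count of 3, so no fold is given for it. With the clone as a block 293 genes were called in place of 88.

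**Figure D2:**
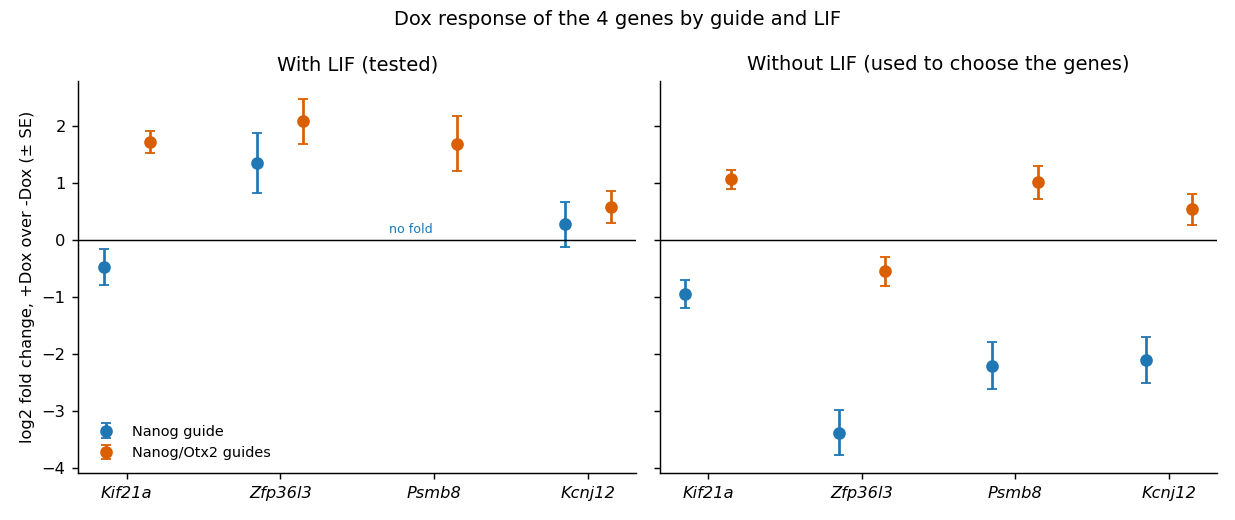
Fitted log2 fold change of each gene on induction (+Dox over -Dox, error bars ± SE), with LIF on the left and without LIF on the right, for the Nanog guide (blue) and the Nanog/Otx2 guides (orange). With LIF the orange points of Kif21a, Zfp36l3 and Psmb8 lie at 1.71, 2.07 and 1.68, and no value is drawn for Psmb8 with the Nanog guide, which was listed at 0.

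The difference between guides in the Dox response with LIF was tested in all 26 SunTag libraries. Kif21a passed, at 2.16 ± 0.37 (SE) on the log2 scale with an adjusted p of 0.0184. It was 1 of 6 genes called among 16210 (0.0370%), and Otx2 led them at 3.63 (adjusted p = 3.50e-07). With the 4 clones as a block 17 genes were called. By means within a clone, Kif21a moved by -1.45 in C1 and 0.08 in C2 on the log2 scale, and by 1.63 in C1ON3 and 2.26 in C2ON3. The Kif21a call rests on few Nanog guide libraries, since it was lost without the induced C1-1 library (1.78, adjusted p = 0.333), without the uninduced C2-1 library (2.08, adjusted p = 0.0911) and in a fit of the 12 libraries with LIF alone (2.21, adjusted p = 0.530). For Zfp36l3 the difference was 0.68 with a 95% interval of -0.64 to 2.00 (adjusted p = 0.771), and for Kcnj12 it was 0.29 with an interval of -0.64 to 1.22 (adjusted p = 0.866), so neither a difference nor its absence was shown. Before induction, the levels with LIF were not called different between guides for Kif21a (0.59, adjusted p = 0.123), Zfp36l3 (-0.61, adjusted p = 0.523) or Kcnj12 (0.47, adjusted p = 0.349), where 12.7% of genes were. Psmb8 was called higher with the Nanog/Otx2 guides (adjusted p = 0.00953), from 13, 8 and 0 estimated counts against 0 in each Nanog guide library. Its mean of 4.42 was below the 5.60 that 3 counts would give in those libraries, so no fold is given. After induction with LIF, Psmb8 averaged 19.4 ± 7.89 (SD, n = 4) with the Nanog/Otx2 guides, at least 4.68-fold the mean level that 3 counts would give in each of the 2 induced Nanog guide libraries.

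Withdrawal of LIF without Dox changed the levels of all 4 genes, also a description since these libraries entered the choice. Kif21a was 14.3-fold higher without LIF with the Nanog guide and 6.49-fold higher with the Nanog/Otx2 guides. The mean of Zfp36l3 went from 6.43 to 117 with the Nanog guide and from 4.24 to 88.6 with the Nanog/Otx2 guides, where the levels with LIF rest on 1 to 7 counts. Psmb8, listed at 0 with LIF under the Nanog guide, was at least 11.4-fold higher without it, and with the Nanog/Otx2 guides its mean went from 4.42, below the 5.87 that 3 counts would give, to 160. Kcnj12 went the other way, 2.89-fold and 3.41-fold lower. Among SunTag libraries, its induced and uninduced ones without LIF were all below those with LIF. The highest without LIF was at 70.8 and the lowest with LIF at 72.4. This did not extend to the other lines with LIF, where Kcnj12 was at 20.2 to 38.8 in Tg2a and 4.79 to 62.2 in 44iN libraries. Ordered by group mean over the 12 groups, Kif21a, Zfp36l3 and Psmb8 were highest in groups without LIF and Kcnj12 in the 4 SunTag groups with LIF. For Kif21a the order at the top was Nanog/Otx2 with Dox at 2335 ± 510 (SD, n = 4), Nanog without Dox at 1781 ± 129 (n = 3), Nanog/Otx2 without Dox at 1148 ± 142 (n = 4) and Nanog with Dox at 901 ± 72.7 (n = 3), all without LIF, of which the first pair and the last pair have overlapping ranges. For Psmb8 it was 314 ± 121, 160 ± 9.99, 63.7 ± 10.4 and, with LIF, Nanog/Otx2 with Dox at 19.4 ± 7.89, and the ranges of the first 4 groups do not overlap.

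In 44iN cells, where Dox restores Nanog from a transgene (706 and 739 without Dox, 13366 and 18394 with it), only Kif21a and Kcnj12 could be tested. Kcnj12 was at 4.80 and 8.87 at 24 h after Dox removal, from 2 and 3 estimated counts, and at 25.8 and 62.2 with Dox. That is at least 5.47-fold higher with Dox against the level that 3 counts would give, and the groups did not overlap. Kcnj12 passed the filter on low counts only through the libraries with Dox, the group where it was high. By edgeR its adjusted p was 0.481 in a comparison that called 0 of 14376 genes (0.00%), with 1023 (7.12%) at an unadjusted p under 0.05 and 141 called by DESeq2. Kif21a was at 230 and 216 without Dox and at 137 and 132 with it, a log2 fold change of -0.63 ± 0.36 (adjusted p = 0.784). Zfp36l3 and Psmb8 stayed at or below 6 and 3 estimated counts in these 4 libraries and were not tested.

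Kcnj12 was lower in long-term Nanog-null 44iN cells than in wild-type Tg2a cells, groups in which Nanog and the cell line cannot be told apart. It was at 4.79 and 7.49 in the Nanog-null libraries and at 20.2, 24.3 and 38.8 in Tg2a cells, a log2 fold change of -2.28 ± 0.46 (SE) with an adjusted p of 0.0244, where 5.26% of 14937 genes were called lower and 8.61% in either direction. The gene passed the filter through the Tg2a libraries, and without a filter the value was -2.28 (adjusted p = 0.0105). Every null library was below every wild-type one, although the call was lost without either null library (adjusted p = 0.265 and 0.143) or without Tg2a replicate 2 (adjusted p = 0.0693). Kif21a, at 274 and 351 against 290, 259 and 213, was not called (0.22 ± 0.25, adjusted p = 0.620). Psmb8, at 14.4 and 21.1 against 4.25, 15.6 and 19.4, was not called either (0.32 ± 0.56, adjusted p = 0.750). Zfp36l3 was at 9.11 and 6.13 against 5.31, 10.4 and 16.4 and fell below the filter on low counts.

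**Figure D3:**
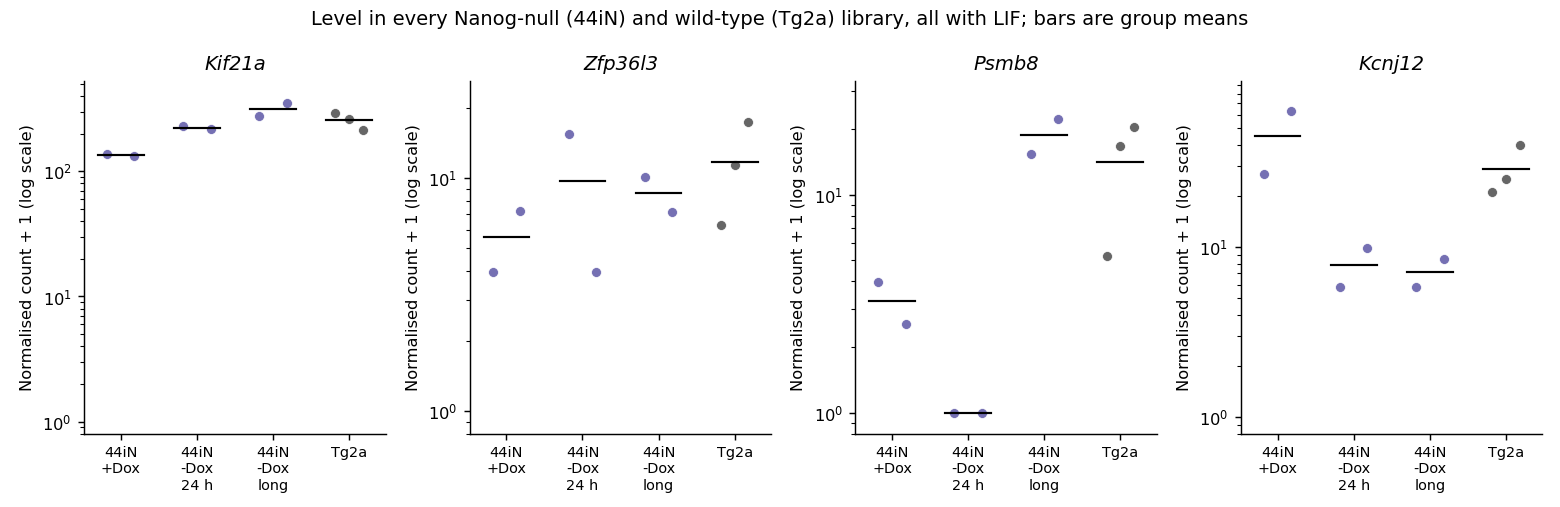
Normalised count + 1 (log axis) of each gene in every library of Nanog-null 44iN cells (purple) and wild-type Tg2a cells (grey), with LIF throughout; black bars are group means. Kcnj12 lies at 25.8 and 62.2 with Dox and at 4.79 to 8.87 in the 44iN libraries without it, and Psmb8 is at 0 in both libraries taken 24 h after Dox removal.

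The relatives of each gene were read from lists of its family or pathway. Among the other kinesin-4 motors, 1 of 4 rose with the Nanog/Otx2 guides in LIF, where 12.9% of all genes did, and none was called with the Nanog guide, where 0.563% were. Kif21b, the closest relative of Kif21a and which also limits microtubule growth, went from 436 to 704 without Dox to 728 to 1183 with it (log2 fold change 0.91 ± 0.20, adjusted p = 0.00489), and was at -0.03 with the Nanog guide (adjusted p = 0.981). Without LIF its log2 fold change was -0.07 with the Nanog guide and 0.31 with the Nanog/Otx2 guides, and neither passed the test (adjusted p = 0.953 and 0.237). Kif21b was also lower in long-term Nanog-null than in wild-type cells (-1.31, adjusted p = 0.0362), where Kif21a was not called.

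Among the other Zfp36 family proteins none of 3 was called in LIF with either set of guides. Without LIF, where 3.60% of genes were called higher and 1.54% lower with the Nanog guide and 11.2% and 6.15% with the Nanog/Otx2 guides, Zfp36l1 rose on induction with both, by 0.82 with the Nanog guide (adjusted p = 0.0117) and by 0.58 with the Nanog/Otx2 guides (adjusted p = 0.0196), the opposite of Zfp36l3. Zfp36l2 was at -0.92 with the Nanog guide (adjusted p = 0.0536) and fell by 0.61 on the log2 scale with the Nanog/Otx2 guides (adjusted p = 0.0289). A list of CCR4-NOT deadenylase subunits and other AU-rich element binders held 10 genes. Of these, 1 of 10 was called in LIF with the Nanog/Otx2 guides, against 10.0% of all genes called lower. It was Cnot8, a catalytic deadenylase subunit, at -0.36 (adjusted p = 0.00536). None of the 10 was called on induction without LIF.

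Psmb8 belongs to a list of immunoproteasome and class I antigen processing genes. With LIF and the Nanog/Otx2 guides, 5 of the other 11 rose and none fell, against 12.9% called higher and 10.0% called lower of all genes. They included Nlrc5, the transcriptional activator of class I genes (2.32 ± 0.38, adjusted p = 0.000812), Tap1 and Tap2, which together form the transporter that carries peptides into the endoplasmic reticulum (1.00, adjusted p = 0.00291, and 1.40, adjusted p = 0.00774), and H2-D1, a class I heavy chain (0.72, adjusted p = 0.0104). With Psmb8 included, the list's median log2 fold change was 0.59, against -0.01 over all genes. With the Nanog guide and LIF none of the 11 was called. Without LIF, all 11 had a negative log2 fold change with the Nanog guide and 9 of 11 a positive one with the Nanog/Otx2 guides, where 50.2% and 49.2% of all genes were positive. Of these, 2 fell with the Nanog guide, Psme2, a proteasome activator subunit (-1.19, adjusted p = 0.00983), and B2m, the class I light chain (-0.97, adjusted p = 0.0406). With the Nanog/Otx2 guides Tapbp, which helps to load peptides, rose (0.67, adjusted p = 0.0185) and B2m fell (-0.62, adjusted p = 0.00960). The difference between guides passed the test for none of the 11, with LIF or without. Tap2, the neighbour of Psmb8 in the same locus, was at 47.8 to 60.2 without Dox and 11.7 to 24.0 with it under the Nanog guide, and at 89.0 to 165 and 145 to 293 under the Nanog/Otx2 guides, all without LIF, but neither response was called (adjusted p = 0.0675 and 0.0552).

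**Figure D4:**
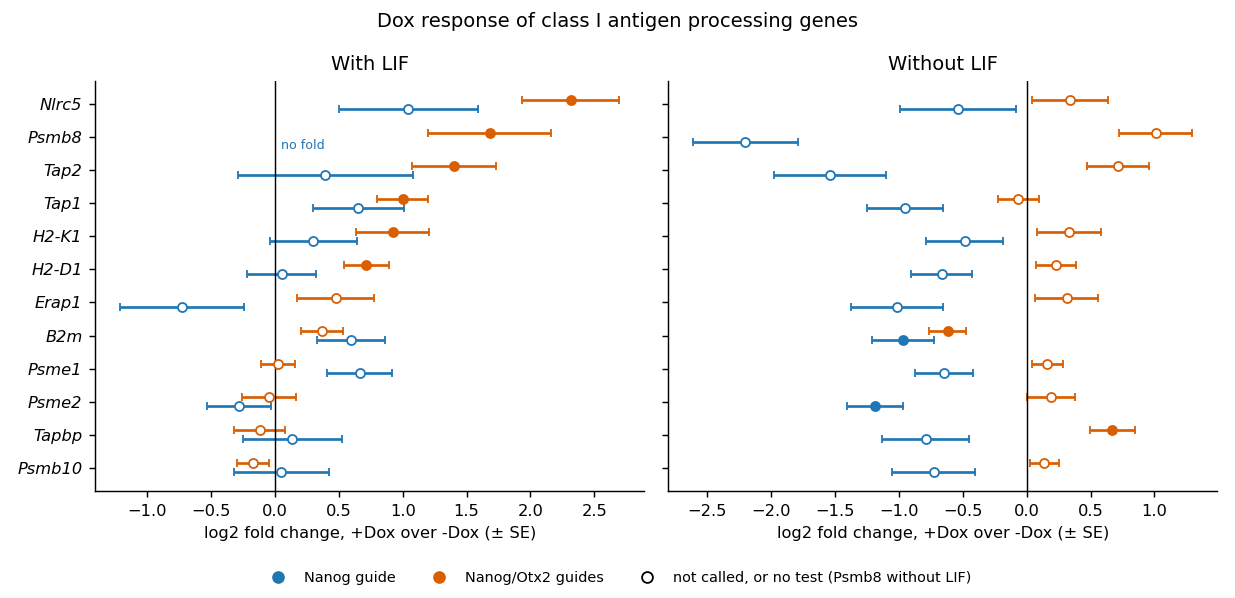
Fitted log2 fold change on induction (± SE) of 12 immunoproteasome and class I antigen processing genes, with LIF on the left and without LIF on the right, for the Nanog guide (blue) and the Nanog/Otx2 guides (orange); filled points passed the test, and Psmb8 without LIF is drawn open because it was chosen on those libraries. With LIF, 6 orange points including Psmb8 are filled and none is blue, and without LIF all 12 blue points lie below 0.

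Of the 7 constitutive beta subunits, 3 fell with the Nanog/Otx2 guides in LIF, Psmb1, Psmb3 and Psmb7, by 0.27, 0.35 and 0.27 on the log2 scale (adjusted p = 0.0252, 0.0136 and 0.0134), and none rose, where 10.0% of all genes were called lower. Psmb5, which Psmb8 replaces, was at -0.17 (adjusted p = 0.102), and Psmb10, another immunoproteasome subunit, was also at -0.17 (adjusted p = 0.346). Psmb9 has several rows in the tables, between which its reads may be split, and was not tested. Of 7 interferon response genes that passed the filter none was called in LIF with either set of guides. Without LIF and with the Nanog/Otx2 guides Bst2 fell by 0.51 on the log2 scale (adjusted p = 0.0338).

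Among 6 other inward rectifier channels, Kcnj11, the pore of the ATP-sensitive channel, and Kcnj9 rose with the Nanog/Otx2 guides in LIF, by 2.78 (adjusted p = 0.000430) and 1.43 (adjusted p = 0.00710). Of all genes 12.9% were called higher there. Kcnj9 was also called higher with these guides without LIF, where 11.2% of all genes were. Kcnj3, which forms acetylcholine-gated channels, fell with both, to -1.04 with the Nanog/Otx2 guides (adjusted p = 0.00323) and to -1.73 with the Nanog guide (adjusted p = 0.0388), and fell in the same way without LIF (-1.39, adjusted p = 6.00e-05, and -1.51, adjusted p = 0.00376). In LIF 10.0% of all genes were called lower with the Nanog/Otx2 guides and 0.563% were called in either direction with the Nanog guide. Without LIF 6.15% and 1.54% were called lower. The other Kir2-type channel genes gave no call on induction. Kcnj4 was at 0.72 in LIF with the Nanog/Otx2 guides (adjusted p = 0.0609) and Kcnj14 at 0.26 (adjusted p = 0.497), and Kcnj2, at 21.6 normalised counts or below in every library, was below the filter.

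Markers of other cell types moved in some of the same comparisons. With the Nanog/Otx2 guides in LIF, 3 of 3 fibroblast markers that passed the filter were called higher (Col1a1, Col1a2 and Thy1), and the sum of the 5 went from between 198 and 361 to between 607 and 806. It reached 726 and 733 from between 145 and 506 with the Nanog guide (none of the 3 called). Of 6 trophoblast markers 3 were called higher with the Nanog/Otx2 guides in LIF (Eomes, Krt8 and Krt18). The sum of the 10 in the tables went from between 1680 and 2209 to between 2282 and 2668. With the Nanog guide in LIF 2 of 7 were called higher (Eomes and Krt8), where 0.563% of all genes were called. There the sum went from between 1617 and 2541 without Dox to 2422 and 3033 with it. Cdx2 stayed at or below 18.9 in all 26 SunTag libraries, and Tpbpa at or below 0.936. Of the other trophoblast markers, the highest value was 10.4 for Elf5, 40.6 for Gata3, 61.5 for Hand1 and 231 for Ascl2. It was 677 for Eomes, 1299 for Krt8, 1723 for Tfap2c and 2032 for Krt18. Of blood and immune markers, 1 of 2 was called higher with the Nanog/Otx2 guides in LIF (Cd74). The 5 summed to between 139 and 181 without Dox and to between 178 and 301 with it. Over all SunTag libraries Ptprc, Lyz2 and Cd14 did not pass 5.38, 2.69 and 8.02. Cd74 was at 31.2 to 265 there and Itgam at 22.4 to 247. With the Nanog/Otx2 guides in LIF the counts of called markers stand beside 12.9% of all genes called higher and 10.0% called lower. Of the 11 naive markers, 3 were called higher in that comparison (Nanog, Tbx3 and Prdm14) and 3 lower (Klf2, Zfp42 and Nr0b1), and of 3 neuroectoderm markers 2 were called lower (Pax6 and Tubb3). Without LIF, 10 of 11 naive markers rose on induction with each set of guides. Of 7 formative and primed markers 3 fell with the Nanog guide (Fgf5, Dnmt3b and Sox3) and 2 with the Nanog/Otx2 guides (Dnmt3b and Sox3). Of the neuroectoderm markers, 1 of 4 fell with the Nanog guide (Nes) and 1 of 3 rose with the Nanog/Otx2 guides (Tubb3). Of all genes, 3.60% were called higher and 1.54% lower there with the Nanog guide, and 11.2% and 6.15% with the Nanog/Otx2 guides. The part of these markers in the results for the 4 genes was not tested. In bulk RNA, fewer expressing cells and less RNA per cell cannot be told apart.

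Over all 35 libraries, log2 levels of Kif21a and Psmb8 correlated at a Pearson r of 0.90, Kif21a and Zfp36l3 at 0.79 and Psmb8 and Zfp36l3 at 0.78, whereas Kcnj12 was at -0.20, -0.04 and -0.08 with Kif21a, Zfp36l3 and Psmb8. These values are descriptive, since libraries share clones, treatments and depth, and the difference between media with and without LIF is part of them. Of 12621 genes compared, those most like Kif21a were Bmpr1b (r = 0.932), Notch2 (0.932) and Ankrd50 (0.928). Those most like Psmb8 were Arl4c (0.933) and Cnn1 (0.923), and those most like Zfp36l3 were Cnksr3 (0.892), Adamts15 (0.892) and Ier5 (0.889). Kcnj12 was most like Ada (0.885), Mms19 (0.882) and Slc26a6 (0.881). Adamts15, a secreted metalloprotease, was without LIF at 217 to 262 without Dox and 45.5 to 74.1 with it under the Nanog guide, and at 128 to 188 and 91.3 to 122 under the Nanog/Otx2 guides.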

How the data were processed

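RNA-seq of 35 libraries was analysed. Per the labels and the methods, the authors aligned stranded reads to mm9 with STAR and quantified genes with RSEM (no version given in the sources used here). The authors deposited estimated counts per gene and, in a second table, the same counts divided by DESeq2 size factors, a signal per gene that served for levels, filter and correlations. Estimated counts were rounded and tested with edgeR 4.0.16 in R 4.3.3 (quasi-likelihood test, TMM scaling, Benjamini-Hochberg adjustment over all genes tested, threshold 0.05) on genes that reached 10 normalised counts throughout all replicates of 1 condition or more. Dox responses were fitted in the 11 Nanog guide and 15 Nanog/Otx2 guide libraries separately, with LIF, Dox and their interaction, and differences between guides in all 26. Standard errors were derived from the quasi-likelihood F. Intervals and the floor of 3 counts cover counting or model error only. DESeq2 1.42.0, other filters, scaling and blocks were alternatives. The fits were tested on simulated data. Figures were drawn with matplotlib 3.10.9.

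The 4 genes and the gene lists were chosen with earlier results of these data known. Named besides them were the 3 genes most correlated with each over log2(normalised count + 1) with a mean of at least 50, the targeted genes, called list genes (at most 4 per list and comparison) and close relatives. Parp10 and the marker genes named were chosen after their values were seen. Replicate pairing was checked on deviations from group means. Nanog/Otx2 libraries with the same clone and number correlated at 0.312 or more (mean 0.371, against -0.129 for different ones, and a mean of 0.409 with the number in the column headers, which differs from the title for 1 of these libraries; that block was added after seeing the data), and Nanog guide libraries of the same clone at a mean of 0.142. Both were taken as paired through the clone. ChIP and ATAC samples and 3 Tg2a libraries in 2i medium were not analysed here. Some genes that the naming rule selected are not reported here.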

Additional observations from a re-analysis of the deposited data

Results flagged for a closer look

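One result is listed because the groups differed in a test of the difference itself. The Dox response of Kif21a with LIF was higher by 2.16 on the log2 scale in Nanog/Otx2 than in Nanog guide clones (1.71 against -0.48, edgeR adjusted p = 0.0184). All 4 induced Nanog/Otx2 libraries were above all 3 uninduced ones, while the Nanog guide libraries overlapped. The guides differ together with the clones and the set of libraries, which cannot be told apart. The test took its spread from all 26 SunTag libraries, those without LIF included. In a fit of the libraries with LIF alone the Kif21a difference was not called. The call was lost without the induced C1-1 library (1.78, adjusted p = 0.333) and without the uninduced C2-1 library (2.08, adjusted p = 0.0911) of the Nanog guide. In the 12 sets of 4 libraries of 1 gene, all of the Nanog/Otx2 guides, no library stood apart from the others by Dixon's criterion, where chance would mark about 1 in 20. Nanog guide groups are too small for that criterion.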

How the results depend on the processing

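Kif21a and Zfp36l3 with the Nanog/Otx2 guides in LIF kept direction and call in every alternative that gave a value (Zfp36l3 gave none with the libraries with LIF alone), leaving out each library in turn included (1.58 to 1.82 and 1.86 to 2.30 on the log2 scale). Leaving out libraries gave 1.37 to 2.28 for Psmb8 there, 1.78 to 2.87 for the Kif21a difference between guides, 1.97 to 3.28 for Kcnj12 in 44iN, called without +Dox replicate 1 (3.27, adjusted p = 0.00133), and -2.65 to -1.97 for Kcnj12 in Nanog-null against Tg2a cells. In that last comparison Kif21a, at -0.01 to 0.37, turned to -0.00528 without null replicate 2, and Psmb8, at -0.10 to 0.74, to -0.0117 without it and to -0.10 without Tg2a replicate 1. Calls over all genes ranged from 3 without induced C1-1 to 142 without uninduced C1-1 (Nanog guide, LIF), 1962 to 4036 (Nanog/Otx2 guides, LIF), 1 without induced C1-1 to 937 without induced C2-1 (guide difference), 1171 to 2970 (uninduced guide difference), 61 without -Dox replicate 1 to 3413 without +Dox replicate 1 (44iN) and 19 without null replicate 1 to 2618 without Tg2a replicate 3 (Nanog-null against Tg2a). Where 1 library was left in a group, it is assumed to vary like the other groups. Libraries with LIF alone gave 0 calls with the Nanog guide (1137 at an unadjusted p under 0.05), 1 for the guide difference (964 unadjusted) and 780 for uninduced cells, with Psmb8 at 1.73 (adjusted p = 0.0517) and the Kif21a difference at 2.21. DESeq2 called 587, 54, 141 and 2294 genes with the Nanog guide, for the guide difference, in 44iN and in Nanog-null cells, in place of 88, 6, 0 and 1286. Without a filter on low counts 151 and 434 genes were called with the Nanog guide and in 44iN, Kcnj12 among the latter (2.77, adjusted p = 0.0473). The causes were not tested.

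With a replicate block the calls were 293 (Nanog guide), 6401 (Nanog/Otx2 guides, Kcnj12 at 0.71 included; 6519 and 0.71 with header numbers, an alternative added after seeing the data), 17 (guide difference), 1912 (44iN, Kcnj12 at 2.71 with adjusted p = 0.000865) and 4796 (Nanog-null against Tg2a, 2 libraries a group). The block changed no other call of the 4 genes. The 44iN and Tg2a libraries share only a number (deviations in 44iN correlated at 0.62), so this is no check of the design.

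The main limits are depth and numbers of libraries. Psmb8 and Zfp36l3 rest on few counts with LIF, only 2 libraries cover the induced Nanog guide with LIF, and the clones cannot be told apart from the guides.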
